A study of Homo sapiens with 12 samples.

Results

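The nuclear copies of mitochondrial genes were studied, which are stretches of mitochondrial DNA that were inserted into the chromosomes in the course of evolution. They were chosen by their symbols (MT, letters or digits, P and a number, or MTRNR2L and a number) and by at least 24 raw counts summed over the 12 samples. Of 52889 gene entries, 412 had such a symbol and 44 of these reached the minimum. The 44 entries held between 24 and 198481 counts. Just inside the minimum lay MTND5P3 with 24 counts, MTND5P18 with 25 and MTRNR2L6 with 27, and just outside lay MTCO1P15, MTHFD2P1 and MTND5P12 with 22 counts each. The 368 entries below the minimum held 2305 counts in all. The pattern does not ask for the name of a mitochondrial gene, which MTHFD2P1 does not carry. How many of the 368 are copies of mitochondrial genes was not counted.

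The label fitted 41 of the 44 entries, whose symbols name 14 genes of the mitochondrial genome. The other 3 entries carry symbols of the same shape but name nuclear genes. They were MTFP1, a protein-coding gene of mitochondrial fission (186 counts), MT2P1, a pseudogene of the metallothionein gene MT2 (46 counts), and MTX1P1, a pseudogene of the metaxin gene MTX1 (31 counts). RefSeq held 43 of the 44 entries in the assembly GRCh38.p14, 42 of them as pseudogenes and MTFP1 as protein-coding. All coordinates below come from that table.

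The mitochondrial genome is a small circle present in many copies per cell. It encodes subunits of respiratory complexes I, III, IV and V together with the 2 ribosomal RNAs and the transfer RNAs of the organelle. It carries no nucleosomes, so the Tn5 transposase used in ATAC-Seq cuts it readily, and mitochondrial reads are a known companion of ATAC-Seq libraries. A nuclear copy can be nearly identical to its parent gene, and then a short read fits both places. How reads with more than 1 placement were treated is not given in the sources used here. Therefore, reads of a copy and of its parent cannot be told apart with certainty in this count table, and every value of a copy below is uncertain in this respect.

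HEK293T cells, which derive from human embryonic kidney, were used, and each group had 3 biological replicates. Mock cells carried the empty vector pSBTet-GP. Cells of day 0 (d0) carried constitutive MLL-AF4, a fusion protein of the t(4;11) translocation, from a stably integrated pSBbi vector and had been selected as a pool. Cells of day 3 (d3) were of this line and carried in addition the reciprocal fusion AF4-MLL on a transiently transfected vector, whose expression was switched on by doxycycline (1 µg/ml) over 48 h. Cells of day 28 (d28) have the genotype of d0 in the labels. They had passed through the same induction and were taken 25 days after d3, when AF4-MLL was no longer expressed. Mock cells thus differ from all other groups in the vector backbone as well as in MLL-AF4, and the day of their harvest is not given in the sources used here. The labels' protocol mentions doxycycline for all samples without saying which of them received it, apart from d3.

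The total counts per sample lay between 353430 and 3539937, and between 257857 and 1116385 outside the 37 mitochondrially encoded genes (symbols starting with MT-). The mitochondrially encoded genes held 26.8% ± 0.319 (SD, n = 3) of all counts in Mock cells, 44.0% ± 1.83 at d0, 39.4% ± 5.94 at d3 and 65.5% ± 2.61 at d28. They were left out of all library sizes and of the test below, so that their counts did not enter the scaling. Reads that fit both a copy and its parent could still add to the counts of the copy. Normalized counts are raw counts divided by the sample's effective library size relative to the mean of the 12 samples. Calls are made with the quasi-likelihood test of edgeR at a Benjamini-Hochberg adjusted p below 0.05 over 23742 genes. Counts are shares of a library, so that more DNA from a copy and less from everything else cannot be told apart.

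The nuclear copies took up a larger part of the libraries at d0, d3 and d28 than in Mock cells. In Mock cells the 44 entries held 3.46%, 3.25% and 3.32% of the counts outside MT- genes. At d0 they held 7.34%, 7.77% and 6.66%, and at d3 7.33%, 6.55% and 4.53%. At d28 they reached 20.2%, 16.3% and 16.9%. No sample of d0, d3 or d28 overlapped with Mock cells, and the samples of d28 lay above all others. The mean share was 2.17-fold that of Mock cells at d0, 1.83-fold at d3 and 5.31-fold at d28. A two-sided exact permutation test gave p = 0.1 on every day, which is the lowest p possible with 3 against 3 samples, and 0.2 after adjustment over the 6 tests of shares and ratios. Within d3, replicate 3 had both the lowest share of copies and the lowest mitochondrial share (32.8%, against 44.1% and 41.4% in replicates 1 and 2).

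Set against the mitochondrial genes of the same names, the copies differed little between the groups. For each 1000 counts on the parent genes there were 107.9, 104.0 and 102.7 counts on copies in Mock cells. The mean ratio was 104.9 ± 2.71 (SD, n = 3) in Mock cells, 105.2 ± 0.451 at d0, 106.0 ± 0.0577 at d3 and 106.5 ± 0.173 at d28. The differences from Mock cells were no larger than the spread among Mock samples. The two-sided exact permutation test gave p = 0.9 at d0, 0.4 at d3 and 0.4 at d28. After adjustment over the 6 tests these were 0.9, 0.48 and 0.48. However, Mock replicate 1 (107.9), which is described apart below, lay above all other samples. Its ratio includes 170 raw counts of MTCO1P25. The other Mock samples (104.0 and 102.7) lay below every sample of d0, d3 and d28 (104.7 to 106.6). The overlap with Mock cells, on which these p-values depend, thus rests on Mock replicate 1.

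**Figure D1:**
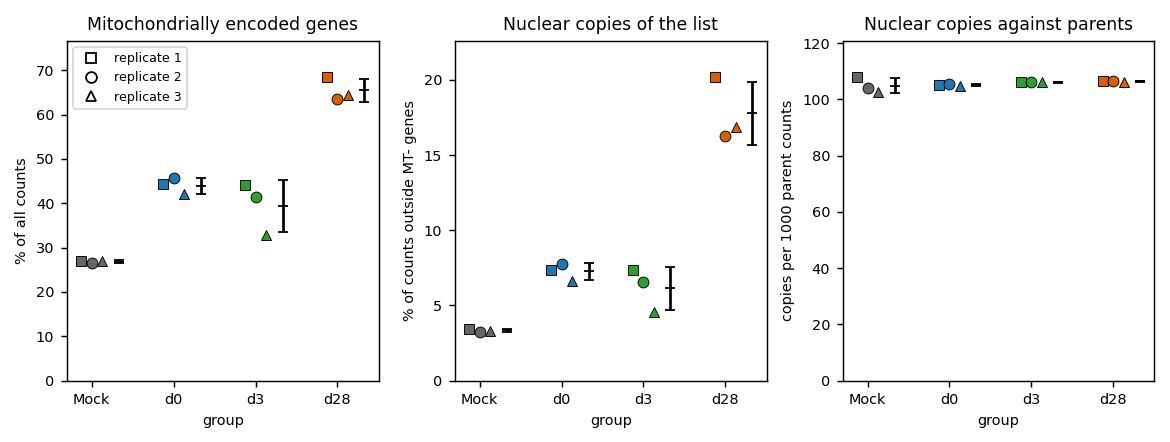
Share of all counts on mitochondrially encoded genes (left, %), share of counts outside these genes on the 44 entries (middle, %), and counts of copies per 1000 counts of their parent genes (right), each by group. Symbols are the 3 replicates and bars the mean ± SD. The left and middle shares were highest at d28 (65.5% and 17.8%), whereas the ratio lay between 102.7 and 107.9 in every sample.

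In the comparison of d0 with Mock cells, 20 of the 44 entries were called higher and 4 lower. Over all 23742 genes tested, 0.291% were called higher and 0.177% lower. The copies made up 29.0% of all 69 genes called higher at d0. At d3, 18 entries were higher and 4 lower than in Mock cells, against 0.661% and 0.476% of all genes. At d28, 22 entries were higher and 4 lower, against 0.767% and 0.67% of all genes. These 3 comparisons share the Mock samples. The 4 entries that were lower (MTCO1P25, MTND1P26, MTCO1P5 and MTND3P19) were the same at each day, and their Mock level came from a single library, Mock replicate 1, which is described apart below. Without this library, 19 entries were higher and 0 lower at d0 (0.223% and 0.126% of all genes), 17 and 0 at d3 (0.362% and 0.265%), and 20 and 0 at d28 (0.446% and 0.501%). By unadjusted p below 0.05, 25 entries differed in either direction at d0, 27 at d3 and 34 at d28 in the fit with all libraries.

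At d0, d3 and d28 the median log2 fold change of the 44 entries was 1.01, 0.88 and 2.15, whereas the median of all genes tested was 0.01, 0.02 and 0.02. The entries fell into 2 sets by depth, with no total between 201 and 698 counts. The division at 600 counts was made after the totals had been seen. The 19 entries above it were copies of 12 parent genes, and all 19 were called higher at d0 and at d28. Their totals include the counts of d28. Without d28, MTATP8P2, MTND6P22, MTND4P35, MTCYBP18 and MTND6P3 would have held 531, 365, 391, 189 and 219 counts, so that these 5 stand above the division only through the group in which they were highest. The calls of all 19 at d28 are therefore a description, and 14 of the 19 lie above the division without d28. The range of the log2 fold changes of the 19 was 0.97 to 1.82 at d0 and 1.85 to 3.48 at d28. Both ends of the d28 range, MTND4P35 and MTCYBP18, are among these 5 entries. At d3, 17 of the 19 were called, and the exceptions were MTND4P35 (0.64, adjusted p = 0.154) and MTCYBP18 (1.07, adjusted p = 0.0828). The 25 entries below the division had a median of -0.02, 0.19 and 1.21 at d0, d3 and d28. Of the 44 entries, 15 reached the minimum of raw counts only with the d28 samples, and all of these lay below the division. The d28 medians of the 44 and of the 25 entries were therefore set in part by the minimum and are given as a description.

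**Figure D2:**
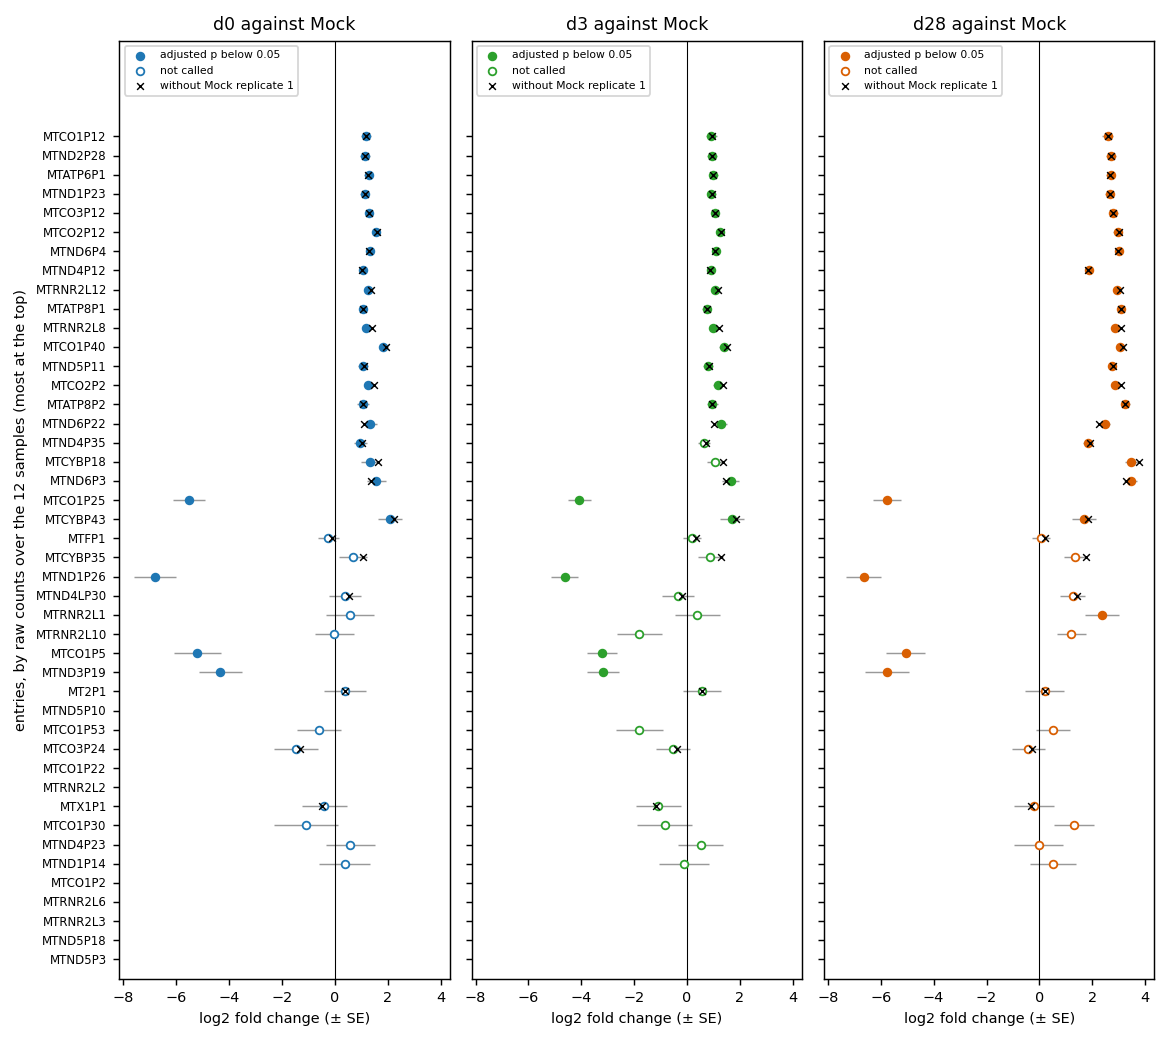
Log2 fold change against Mock cells for the 44 entries, with the standard error of the edgeR fit as bars (12 samples, 3 per group). Filled circles passed an adjusted p of 0.05, open circles did not, and crosses show the fit without Mock replicate 1. No value is drawn where the Mock samples in use held 3 counts or fewer in all. The upper 19 entries lie to the right of 0 in each panel, and the 4 filled circles on the left are entries whose Mock counts came from replicate 1.

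Most counts came from a single place in the genome. A run of 7 copies at chr1:629062-634922 held 593371 counts, which were 91.6% of the counts of all 44 entries. It consists of MTND1P23, MTND2P28, MTCO1P12, MTCO2P12, MTATP8P1, MTATP6P1 and MTCO3P12. The copies stand in the order of their parents in the mitochondrial genome. MTATP8P1 and MTATP6P1 overlap, as their parents do, so that reads in the overlap could be assigned to either or to neither.

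The summed normalized count of the run was 14680, 14320 and 14310 in Mock cells. It was 33640, 35980 and 30290 at d0, against 33850, 30250 and 20350 at d3 and 108600, 83560 and 86250 at d28. The groups d0, d3 and d28 did not overlap with Mock cells, d0 and d3 overlapped with each other, and d28 lay above all. Relative to the Mock mean, the means were 2.31-fold at d0, 1.95-fold at d3 and 6.43-fold at d28. The nearest tested genes that are no copies and do not overlap the run were CICP7, 138243 bases before it, and CICP3, 87124 bases after it. At d28 their log2 fold changes against Mock cells were 0.34 (adjusted p = 0.91) and -1.50 (adjusted p = 0.291). Both were shallow, with means of 2.585 and 6.932 normalized counts in Mock cells.

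**Figure D3:**
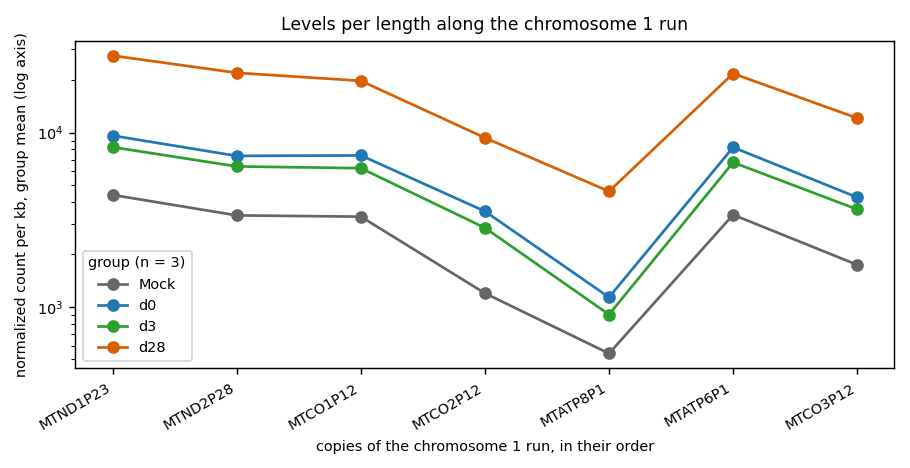
Mean normalized count per kb (log axis, n = 3 per group) for the 7 copies of the chromosome 1 run in their order. The profile has its lowest point at MTATP8P1 in every group, and the line of d28 lies above those of d0, d3 and Mock cells at all 7 copies.

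Copies of complex I genes were the most numerous. Complex I passes electrons from NADH to ubiquinone, and 16 entries were copies of its mitochondrial subunits. Of these, 8 were higher and 2 lower than in Mock cells both at d0 and at d28, while 7 were higher and 2 lower at d3. The shares over all genes given above (0.291% and 0.177% at d0, 0.661% and 0.476% at d3, 0.767% and 0.67% at d28) hold here too. The 2 lower entries, MTND1P26 and MTND3P19, were not called without Mock replicate 1. The deepest was MTND2P28 at chr1:629640-630686. Its normalized count was 3565, 3442 and 3512 in Mock cells, 7772, 8316 and 6980 at d0, against 8229, 7144 and 4704 at d3 and 26990, 20660 and 21430 at d28. The lowest value of any other group was thus above all Mock samples, and the log2 fold changes were 1.13 ± 0.186 (SE), 0.93 ± 0.185 and 2.71 ± 0.194 (adjusted p = 4.71e-06, 5.22e-04 and 9.98e-28).

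MTND1P23 at chr1:629062-629440 was the only large copy of MT-ND1. It rose from 1722, 1629 and 1639 in Mock cells to 12270, 9434 and 9682 at d28, a log2 fold change of 2.65 ± 0.173 (SE, adjusted p = 1.29e-31). With 27600 normalized counts per kb at d28, its mean level per length was the highest of the 43 entries with a known length. MTND5P11 at chr5:134924648-134926459 held 75.8, 75.3 and 63.7 normalized counts in Mock cells and 602.3, 412.3 and 428.4 at d28 (2.76 ± 0.149, SE). MTND6P4 at chr5:134924123-134924644 rose from 313.7, 331.2 and 338.6 in Mock cells to 824.0, 900.8 and 752.8 at d0, and to 3021, 2390 and 2478 at d28. Its log2 fold changes were 1.33 ± 0.150 (SE) at d0, 1.09 ± 0.148 at d3 and 3.01 ± 0.148 at d28.

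The copies of MT-ND4 rose least among the large entries at d28. MTND4P12 at chr5:134926661-134928036 held 303.1, 324.7 and 331.4 normalized counts in Mock cells and 1331, 1079 and 1085 at d28, a log2 fold change of 1.87 ± 0.135 (SE, adjusted p = 2.07e-27). MTND4P35 at chr5:100048988-100050362 rose by 1.85 ± 0.189 on the log2 scale. Among the small entries, MTND4LP30, the deepest copy of MT-ND4L, had 4, 4 and 2 raw counts in Mock cells and 35, 10 and 5 at d28 and was not called on any day.

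Complex III, which hands electrons from ubiquinol to cytochrome c, has a single mitochondrial subunit, cytochrome b. All 3 copies of MT-CYB were shallow, with 1080 counts in sum against 633467 counts on MT-CYB itself. MTCYBP18 at chr5:134923303-134924049 held 16.7, 9.09 and 10.9 normalized counts in Mock cells and 178.4, 111.2 and 96.3 at d28, which gave the largest log2 fold change of the 19 large entries at d28 (3.48 ± 0.232, SE, adjusted p = 1.11e-30). With 189 counts without d28, MTCYBP18 stands among the large entries only through that group, so that this rank is a description. Its difference at d0 was near the threshold (1.32, adjusted p = 0.040) and was lost in DESeq2 (adjusted p = 0.0747) and on leaving out any of 5 single libraries. MTCYBP43 at chr4:30884443-30885182, named after its values had been seen, had another course. Its raw counts were 4, 2 and 4 in Mock cells, 26, 6 and 18 at d0, against 18, 20 and 25 at d3 and 28, 22 and 16 at d28. The log2 fold changes were 2.10, 1.70 and 1.69 (adjusted p = 0.00311, 0.0226 and 0.0224), and between d28 and d0 the difference was -0.40 (adjusted p = 0.61). Without Mock replicate 1, MTCYBP43 was called at d0 (adjusted p = 0.0134) but not at d3 (0.0641) or d28 (0.055). DESeq2 did not call MTCYBP43 against Mock cells on any day.

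Complex IV is cytochrome c oxidase, which reduces oxygen to water. Its 12 copies gave 5 higher and 2 lower entries on each of the 3 days against Mock cells, and the 2 lower ones, MTCO1P25 and MTCO1P5, were not called without Mock replicate 1. Over all genes, at most 0.767% were called higher and at most 0.67% lower on these days. MTCO1P12 at chr1:631074-632616 was the deepest of all 44 entries. It held 5226, 5067 and 4956 normalized counts in Mock cells, 11450, 12320 and 10440 at d0, against 11550, 10300 and 7056 at d3 and 35770, 27620 and 28230 at d28. The values of d28 were again above those of every other sample, and the log2 fold changes were 1.17 ± 0.193 (SE), 0.92 ± 0.192 and 2.59 ± 0.202 (adjusted p = 6.93e-06, 0.00116 and 2.44e-24).

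MTCO1P40 at chr17:53105734-53106358 stands alone, with no other copy of the list beside it. It had the smallest p of all entries at d0. Its normalized count was 72.8, 49.4 and 69.2 in Mock cells, 224.9, 250.2 and 194.7 at d0, against 185.3, 189.6 and 121.5 at d3 and 564.5, 498.1 and 478.7 at d28. The log2 fold changes were 1.82 ± 0.171 (SE), 1.39 ± 0.170 and 3.04 ± 0.150 (adjusted p = 6.21e-17, 1.83e-10 and 2.79e-45). MTCO2P12 at chr1:632757-633438 rose by 1.56 ± 0.159 (SE) at d0, 1.25 ± 0.158 at d3 and 2.96 ± 0.164 at d28 on the log2 scale, and MTCO3P12 at chr1:634376-634922 by 1.28 ± 0.159, 1.06 ± 0.158 and 2.79 ± 0.164. MTCO2P2 at chr18:47853230-47853472, a further copy of MT-CO2 outside the runs, rose by 1.27 ± 0.180, 1.17 ± 0.172 and 2.88 ± 0.149.

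Complex V is ATP synthase, and each of its 3 copies was called higher on each day, against at most 0.767% of all genes. MTATP6P1 at chr1:633696-634376 held 2234, 2357 and 2309 normalized counts in Mock cells, 5758, 5928 and 5118 at d0, and 17350, 13270 and 13900 at d28. MTATP8P1 at chr1:633535-633741 held 113.7, 113.0 and 109.2 in Mock cells and 1123, 862.6 and 870.0 at d28, and it had the smallest p at d28 (log2 fold change 3.09 ± 0.142, SE, adjusted p = 1.61e-48). MTATP8P2 at chr2:87824942-87825143 rose from 36.4, 48.1 and 25.5 in Mock cells to 420.8, 316.6 and 327.6 at d28 (3.25 ± 0.165, SE). At d0 and d3, however, MTATP8P2 was not called by DESeq2 (adjusted p = 0.0774 and 0.173).

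The MTRNR2L entries are copies of the 16S ribosomal RNA gene MT-RNR2, which also holds the short reading frame of the peptide humanin, after which they are known as humanin-like. Of 7 such entries, 2 were higher at d0 and d3 and 4 at d28, against 0.291%, 0.661% and 0.767% of all genes. MTRNR2L12 at chr3:96617186-96618223 held 200.1, 146.8 and 174.8 normalized counts in Mock cells, 444.7, 426.1 and 369.9 at d0, against 428.6, 383.4 and 255.5 at d3 and 1549, 1200 and 1220 at d28. Its log2 fold changes were 1.26 ± 0.151 (SE), 1.04 ± 0.148 and 2.94 ± 0.141. MTRNR2L8 at chr11:10507887-10509176 lies between AMPD3 and RNF141, which ended 308 bases before it and began 2497 bases after it. It rose by 2.87 ± 0.144 (SE) on the log2 scale at d28, whereas AMPD3 differed by 0.03 (adjusted p = 0.995) and RNF141 by -0.27 (adjusted p = 0.768). AMPD3 and RNF141 had means of only 7.48 and 21.8 normalized counts in Mock cells, against 107.7 for MTRNR2L8.

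Of the 5 small MTRNR2L entries, 2 were called against Mock cells, and both only at d28. Without the d28 samples they would have held 21 (MTRNR2L1) and 11 counts (MTRNR2L2) and would not have reached the minimum, so that their calls are given as a description. MTRNR2L1 had 3, 1 and 0 raw counts in Mock cells and 26, 10 and 8 at d28 (log2 fold change 2.37, adjusted p = 0.0314). MTRNR2L2 had 0 counts in all Mock samples and 16, 5 and 1 at d28 (adjusted p = 0.0257). At a floor of 3 counts per library its mean at d28 did not exceed what 0 counts in Mock cells allow, so no fold is given. Without Mock replicate 1, MTRNR2L1 remained called (adjusted p = 0.0179) and MTRNR2L2 did not. DESeq2 called neither of them.

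Between the groups that carry MLL-AF4, d28 differed from d0 and d3, but d3 was not told apart from d0. From d0 to d3, 0 entries were called by edgeR or by DESeq2, although 4 had an unadjusted p below 0.05 in edgeR. Of all genes, 0.556% were called higher and 0.383% lower in this comparison. The median log2 fold change of the entries was -0.21, and MTCO1P40 came nearest to the threshold (-0.43 ± 0.129, SE, adjusted p = 0.0749). Without d3 replicate 1, MTCO1P40 was called lower at d3 than at d0 (-0.53, adjusted p = 0.043).

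From d0 to d28, all 19 large entries were called higher and no entry was called lower, against 0.543% and 0.762% of all genes. For the 5 entries that pass 600 counts only with d28, this count is partly set by the division. The log2 fold changes of the 19 ran from 0.80 (MTND4P12) to 2.17 (MTATP8P2, which is among these 5). From d3 to d28, the 19 large entries were called again, together with MTRNR2L1 (1.99, adjusted p = 0.0377) and MTRNR2L10. The latter, named after its values had been seen, had 2, 1 and 1 raw counts at d3 and 21, 9 and 8 at d28 (adjusted p = 0.00136), and it too reached the minimum only with d28 (21 counts without). DESeq2 called neither MTRNR2L1 nor MTRNR2L10 here. No entry was called lower at d28 than at d3. In this comparison 0.126% of all genes were called higher and 0.08% lower. Among all 30 genes called higher at d28 than at d3, 21 (70.0%) were nuclear copies of mitochondrial genes. MTATP8P1 had the smallest p in both comparisons, with a log2 fold change of 2.03 ± 0.125 (SE) against d0 and 2.35 ± 0.121 against d3.

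The parent genes were left out of the test, and their factors are descriptions. Over the 14 parents, the mean normalized count at d28 was between 4.53-fold (MT-ND4L) and 7.65-fold (MT-ND3) that of Mock cells, and for their summed copies it was between 0.0244-fold and 8.79-fold. For MT-CO1 the factor was 5.70 for the parent and 5.91 for its summed copies, for MT-ND2 it was 6.32 and 6.57, and for MT-CO3 6.79 and 6.90. The factors lay further apart for MT-ND4 (6.46 for the parent and 3.63 for its copies), for MT-ND4L (4.53 and 2.20) and for MT-ND3, whose single copy MTND3P19 had its Mock counts in replicate 1. At d0, MT-CO1, MT-ND2 and MT-CO3 gave 2.20 and 2.21, 2.25 and 2.19, and 2.31 and 2.42. A copy and its parent may share reads.

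Each of the 19 large copies was therefore also set against its own parent in the same library. MTCO1P12 had 258.5 ± 7.30 (SD, n = 3) counts per 1000 counts of MT-CO1 in Mock cells, 263.2 ± 3.38 at d0, 269.6 ± 4.09 at d3 and 272.5 ± 1.40 at d28. Its highest and lowest samples differed by a factor of 1.10, and the factor was 1.08 for MTND2P28 and 1.11 for MTCO3P12. At d28 the ratio of 10 of the 19 copies lay within 20% of that in Mock cells. In 57 tests of a copy's ratio against Mock cells (two-sided exact permutation tests, smallest possible p = 0.1), the lowest adjusted p was 0.211, so that none of the differences below passed a threshold.

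The ratio of some copies differed more between the groups. MTND4P12 had 18.4, 20.1 and 20.5 counts per 1000 counts of MT-ND4 in Mock cells and 10.8, 11.4 and 11.1 at d28, without overlap between the groups. MTND4P35 showed the same direction, with a mean of 1.92 in Mock cells and 1.10 at d28. MTCO1P40 had 3.64, 2.57 and 3.49 counts per 1000 of MT-CO1 in Mock cells and 5.11, 5.42 and 4.90 at d0, and it was higher than in Mock cells in each sample of d3 and d28 as well. MTCO2P12 had 108.9 ± 3.13 (SD, n = 3) per 1000 of MT-CO2 in Mock cells and 130.3 ± 0.854 at d0. MTATP8P1 had a mean of 68.5 per 1000 of MT-ATP8 in Mock cells, with lower means of 50.8 at d0 and 48.3 at d3 but a higher mean of 80.5 at d28. The 3 samples of each of these groups lay apart from the Mock samples (p = 0.1 by the exact test for each).

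**Figure D4:**
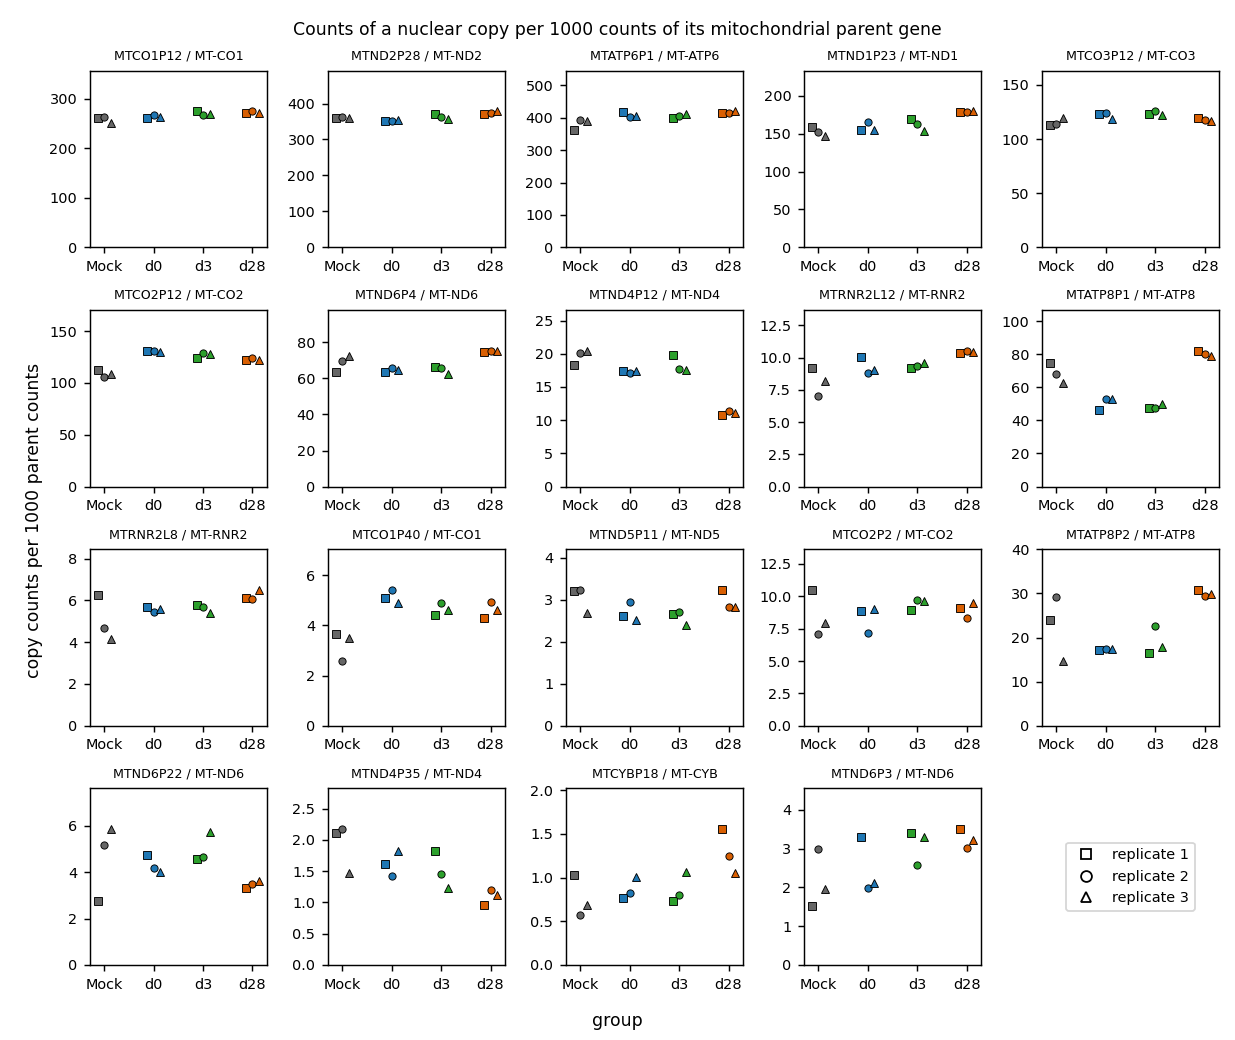
Counts of each of the 19 large copies per 1000 counts of its parent gene, by group (linear axes from 0, symbols for the 3 replicates). The ratio of MTCO1P12 stayed between 250.2 and 274.2 in all 12 samples, whereas that of MTND4P12 was 11.1 on average at d28 and 19.7 in Mock cells.

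Besides the run on chromosome 1, 3 runs lay on chromosome 5, and 19 entries in all were part of a run. The run at chr5:134923303-134928326 comprised MTCYBP18, MTND6P4, MTND5P11, MTND4P12 and MTND4LP30 and held 28966 counts (4.47% of all counts of the entries). Its summed normalized count was 715.4, 745.5 and 748.3 in Mock cells and 5150, 4000 and 4095 at d28, and its mean relative to Mock cells was 2.29-fold at d0, 1.96-fold at d3 and 5.996-fold at d28. The nearest tested genes that did not overlap it were TXNDC15 and PITX1, with log2 fold changes of -0.36 and -0.29 at d28 (adjusted p = 0.526 and 0.669).

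The run at chr5:100046450-100055045 comprised MTND6P22, MTND5P10, MTND4P35, MTND3P19 and MTCO1P22, with 1845 counts. Its mean was 3.26-fold that of Mock cells at d28, and its Mock values of 115.2, 59.8 and 52.8 include the reads of MTND3P19 in Mock replicate 1. MTND6P3 and MTCYBP35 formed a run at chr5:94568929-94570676 with 837 counts and an 8.10-fold higher mean at d28.

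The nearest tested genes on either side of the entries were 56 genes, of which 0 were called higher on any day against Mock cells by edgeR. Genes that overlap an entry were not considered as its neighbours. Over all genes tested, 0.291%, 0.661% and 0.767% were called higher at d0, d3 and d28, and 0.177%, 0.476% and 0.67% lower. With such shares, 0 of 56 does not set the neighbours apart from all genes. Some neighbours were shallow or lay far off, such as ARAP2, 5120222 bases after MTCYBP43. At unadjusted p below 0.05, 6 of the 56 differed in either direction at d0, 6 at d3 and 7 at d28, and 0, 2 and 1 were called lower. Their median log2 fold changes at d0, d3 and d28 were 0.01, -0.18 and -0.01. Pseudogenes of ribosomal protein genes, which derive from nuclear genes, served as a further list. Of 996 such entries 23 passed the minimum, and 0 of them were called in any comparison by edgeR, with 2, 2 and 4 at an unadjusted p below 0.05 at d0, d3 and d28 against Mock cells. With 23 entries, 0 calls does not set this list apart from all genes either. The medians of the 23 entries were -0.01, 0.32 and 0.18. The 3 entries that name nuclear genes were not called on any day either. MTFP1, the deepest of them, had 12, 10 and 8 raw counts in Mock cells and 25, 21 and 16 at d28 (log2 fold change 0.05, adjusted p = 0.974).

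Mock replicate 1 stood apart in a small number of entries. In this library, 24 of 23742 genes (0.101%) had a normalized count of at least 10 and at least 5 times that of both other Mock samples, and 5 of the 24 were nuclear copies. MTCO1P25 at chr7:69331835-69333633 had 170 raw counts in Mock replicate 1 and 1 in each other Mock sample. MTND1P26 at chr2:131385700-131386423 had 123, 0 and 0 counts in the 3 Mock samples, MTCO1P5 had 40, 1 and 0, MTND3P19 had 40, 0 and 0, and MTCO1P53 had 7, 0 and 1. The first 4 held 0 to 8 counts in each sample of d0, d3 and d28.

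The calls of these 4 copies as lower than in Mock cells rest on 1 library. With 0 or 1 counts in each other Mock sample, a change without it cannot be judged. Without Mock replicate 1, MTND1P26, MTCO1P5 and MTND3P19 would have had 12, 12 and 11 counts and would not have reached the minimum. In no other sample did a nuclear copy stand apart from the replicates of its group by the same rule, in which 0 to 10 genes per library did.

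**Figure D5:**
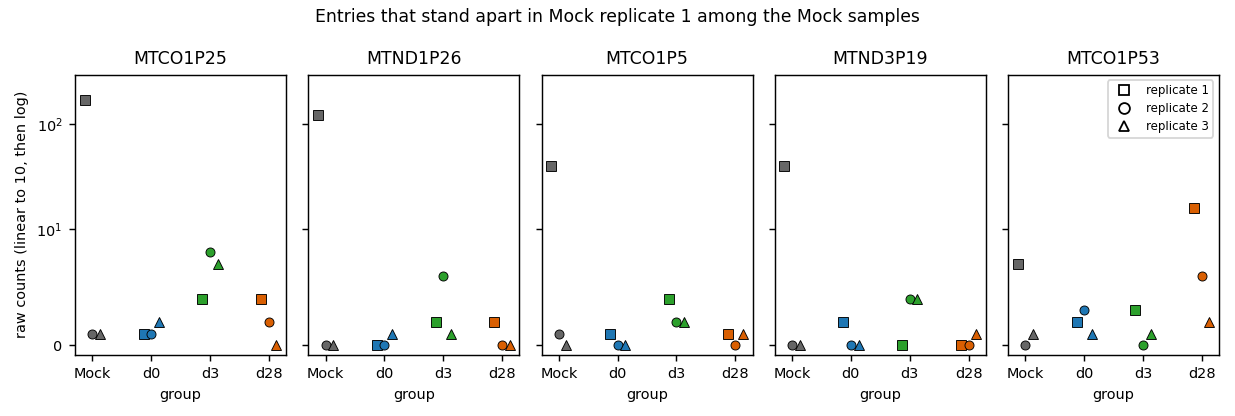
Raw counts of the 5 copies that stood apart in Mock replicate 1, in each of the 12 samples (axis linear up to 10 and logarithmic above). The square of Mock replicate 1 lies at 170, 123, 40, 40 and 7 counts, and the other Mock samples hold 0 or 1.

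The other 19 genes that stood apart in Mock replicate 1 included genes of heart and skeletal muscle, beside genes such as CD22, CASR and STMN2. ACTC1, which encodes cardiac actin, had 62, 0 and 2 raw counts in the 3 Mock samples. MYH7, a slow myosin heavy chain, had 68, 6 and 2, and CKMT2, the mitochondrial creatine kinase of muscle, had 12, 2 and 1. A list of 21 heart muscle genes, written after these values had been seen, summed to 516.8 normalized counts in Mock replicate 1 and to between 167.7 and 271.8 in the other 11 samples. The list holds ACTC1, MYH7 and CKMT2 themselves, with 94.0, 103.1 and 18.2 normalized counts in Mock replicate 1. Its sum was thus set in part by the genes that prompted the list and is a description only. Of the 21 genes, 11 were higher in Mock replicate 1 than in both other Mock samples. The 3 that met the rule given above were ACTC1, MYH7 and CKMT2. Some were lower, such as CKM (1.516, 5.195 and 7.282 normalized counts in the 3 Mock samples), ACTN2 (19.7, 22.1 and 36.4) and RYR2 (36.4, 37.7 and 54.6). The part of the 21 genes in the result was not tested.

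The remaining 17 copies, with 24 to 189 counts each, held 921 counts together. Apart from MTCYBP43, MTRNR2L1, MTRNR2L2 and MTRNR2L10, none of them was called in any comparison. MTCYBP35 had 6, 5 and 1 raw counts in Mock cells and 35, 16 and 12 at d28 (log2 fold change 1.36, adjusted p = 0.0905), and MTND5P10 had 1, 0 and 1 and then 14, 15 and 1. Of the 44 entries, 15 would have had fewer than 24 counts without the samples of d28, which are the deepest on average, so that the list of small copies depends on this group. For the other 13 of the 17, no difference was detectable at this depth.

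The 368 entries below the minimum summed to 254.6, 135.1 and 140.2 normalized counts in Mock cells, 176.5 ± 13.2 (SD, n = 3) at d0, 143.8 ± 11.2 at d3 and 251.7 ± 20.8 at d28. The minimum counted d28 as well, so that an entry with many counts there was not left in this set, and the sums are given as a description only.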

How the data were processed

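ATAC-Seq libraries had been prepared from isolated nuclei with the Tn5 transposase. The authors deposited 1 table of raw read counts per gene for the 12 samples, not normalized, and the submitters' processing notes name bcl2fastq, Bowtie2, HTSeq and GRCh38. Versions, gene annotation, read shift, removal of duplicates and the treatment of reads with several placements are not given in the sources used here. Groups and replicates were taken from the labels, and nothing beyond the term biological replicate describes how replicates were separated. P-values measure the spread between these samples.

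The members and lists were chosen with earlier results of these data known. Mitochondrially encoded genes were removed, and genes with at least 24 counts over the 12 samples were tested in R 4.3.3 with edgeR 4.0.16 (TMM factors, quasi-likelihood F test, all 12 samples, group as the only term, Benjamini-Hochberg adjustment over all genes tested). TMM factors were taken over the tested genes, because simulated data showed that factors over all entries followed depth. The standard error is the log2 fold change divided by the square root of F. The procedure was tested on simulated data. Replicates of a group differed beyond counting noise (chi-square per degree of freedom 1.06 to 1.46). A floor of 3 counts was between 2.69e-04% and 0.00116% of the counts outside MT- genes, and it covers counting error only.

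Named were the deepest copy of each parent gene, the 5 entries with the smallest p in each direction against Mock cells and the 3 in the other comparisons, entries apart in Mock replicate 1, those at the edge of the minimum and those that name no mitochondrial gene. Runs are members between which only other copies lie. Genes shown in addition are said to be so or stand for a list or run. Sensitivity was examined with DESeq2 1.42.0, other factors and filters, a replicate block and each sample left out. Parent ratios per copy and the list of heart muscle genes were added after the data had been seen. Plots were made in Python 3.11.15 (matplotlib 3.10.9). Sequences of the copies were not analysed here.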

Additional observations from a re-analysis of the deposited data

How the results depend on the processing

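The counts of copies called kept their size to within 1.5 times under every normalization, filter and test, with 184 of 189 recomputed counts and sums on the same side. Leaving out 1 sample at a time gave 19 to 24 calls at d0, 17 to 22 at d3 and 20 to 26 at d28 against Mock cells, 19 to 20 for d28 against d0 and 19 to 22 for d28 against d3. For d3 against d0 it gave 0 to 1, the call being MTCO1P40 without d3 replicate 1. DESeq2 called 17, 15 and 19 entries at d0, d3 and d28 against Mock cells. All of these were large entries and higher, so that neither the 4 lower entries nor any small entry was among them. Entries for which DESeq2 gave no adjusted p, such as MTND3P19 at d0, also count as not called. A missing DESeq2 call of a lower or small entry, here or above, is therefore not in itself a negative test. For d28 against d3 it called the 19 large entries only. With edgeR's own filter, 22 of the 44 entries were tested and the 4 lower ones were not. Scaling by library sizes only moved the median of all genes to -0.24 at d28 against Mock cells.

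The ratio of copies to parents crossed 1 in some settings, without passing a test: at d0 it was 1.003 and became 0.989 with protein-coding parents only, and it ranged from 0.993 to 1.018 on leaving out single samples, with 0.999 without Mock replicate 2. At d3 it was 0.999 with protein-coding parents only, and 1.001 to 1.026 on leaving out samples. The direction of 4 copies turned without Mock replicate 1, with at most 2 counts left in the other Mock samples, and none was then called. On leaving out single samples, the log2 fold change of MTND3P19 ranged from -7.38 to 3.05 at d0, from -3.85 to 4.22 at d3 and from -7.39 to 1.62 at d28, that of MTND1P26 from -8.997 to 2.22, from -5.60 to 4.38 and from -8.84 to 2.35, that of MTCO1P25 from -6.18 to 0.21 at d0 and from -4.73 to 1.66 at d3, and that of MTCO1P5 from -3.85 to 1.36 at d3, with the highest value of each reached without Mock replicate 1. Among single entries, 18 further settings lost a call and 1951 kept it or its absence. These single entries were the deepest copies and those with the smallest p. Among them, calls lost in other settings were those of MTCYBP18 and MTATP8P2 at d0, and of MTATP8P1, MTND5P11 and MTATP8P2 at d3. Further large copies lost calls too, such as MTND6P3 at d0 without Mock replicate 1 (adjusted p = 0.0718). Of the 19 large entries, 16 were called at d0 without Mock replicate 3, and also 16 without d0 replicate 1. Without d3 replicate 1, the log2 fold changes at d3 were 0.54 for MTATP8P1 and 0.58 for MTND5P11 (adjusted p = 0.107 and 0.119).

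Replicate numbers are shared by the groups and were not used to pair the samples in the main fit. The mean correlation of same-numbered deviations was between -0.0728 and 0.034 over 8311 genes, and in no comparison did all 3 samples correlate best with their own number. Replicates differed by little more than counting noise, so that these correlations cannot decide whether the samples were paired. With the replicate block, 24, 22 and 26 entries were called at d0, d3 and d28 against Mock cells, 0 for d3 against d0, 19 for d28 against d0 and 20 for d28 against d3. Depth limits the 25 entries with fewer than 600 counts.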
